A study of Mus musculus with 32 samples.

Results

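The transcripts examined here encode the structural and exchangeable proteins of triglyceride-rich lipoproteins and high-density lipoprotein, together with the machinery that loads them with lipid. They are *Apob*, *Mttp*, *Apoa1*, *Apoa4*, *Apoa5*, *Apoc2*, *Apoc3*, *Apoe* and *Pltp*, 9 of the 24646 genes measured, and they were taken by their gene names. RNA of the liver and of 3 fat depots, the white fat of the epididymis (eWAT), that of the groin (iWAT) and brown fat (BAT), was measured on Affymetrix Mouse Gene 2.1 ST arrays, which probe the whole transcript. Each tissue was measured in 4 Gpr146 WT and 4 Gpr146 KO mice, with 1 array per mouse and tissue and 32 arrays in all. All animals were male littermates on a C57BL/6J background, 20 weeks of age, kept on a high-fat diet (HFD) for 3 months and fasted overnight, so that the controls also carried the diet and the fast. The knockout was present in the whole body, and *Gpr146* encodes an orphan G protein-coupled receptor. The question put to these genes was whether loss of the receptor changed their transcripts in the liver, and whether the fat depots changed likewise.

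Very-low-density lipoprotein (VLDL) is assembled in the hepatocyte when microsomal triglyceride transfer protein, the product of *Mttp*, lipidates apolipoprotein B as it enters the endoplasmic reticulum. The particle then carries exchangeable apolipoproteins that decide how fast lipoprotein lipase empties it and how the liver takes up its remnant, and phospholipid transfer protein moves the surface phospholipid that is shed to high-density lipoprotein (HDL). Liver and intestine are the main sites of *Apob*, *Mttp*, *Apoa1* and *Apoa4* expression, whereas *Apoe* and *Pltp* are also expressed in many other tissues.

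In the GRCm38.p6 annotation of RefSeq, *Apoa1*, *Apoc3*, *Apoa4* and *Apoa5* lie within 43.3 kb at chr9:46228630-46271921. *Apoe* and *Apoc2* lie with *Apoc1* and *Apoc4* within 29.7 kb at chr7:19671579-19701310. The sequences before the start of 4 genes are shown because the results turn on them, namely *Apob* and *Mttp* as the VLDL assembly genes, *Apoa4* as the gene with the widest spread in liver, and *Pltp* as the gene that changed in eWAT. RefSeq promoter entries matched 8 of the 9 genes and not *Apoc3*. Each sequence holds the 250 bases before the annotated start, except that of *Apob*, of which 202 bases lie outside the annotated gene. Capitals mark the letters CAAAGNNCA, the core of sites bound by HNF4 and related nuclear receptors, or TATAAA, searched on both strands.
Apob, chr12:7977427-7977628, plus strand: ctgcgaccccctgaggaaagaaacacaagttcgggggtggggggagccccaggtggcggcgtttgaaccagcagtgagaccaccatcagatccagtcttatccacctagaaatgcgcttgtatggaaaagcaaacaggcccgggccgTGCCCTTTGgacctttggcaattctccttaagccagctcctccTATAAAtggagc
Mttp, chr3:138143419-138143668, minus strand: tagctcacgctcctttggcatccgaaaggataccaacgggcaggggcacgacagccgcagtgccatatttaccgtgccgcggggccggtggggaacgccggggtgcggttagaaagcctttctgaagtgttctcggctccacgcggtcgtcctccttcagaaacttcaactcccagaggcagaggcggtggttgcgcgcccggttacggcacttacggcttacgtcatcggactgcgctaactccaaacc
Apoa4, chr9:46240594-46240843, plus strand: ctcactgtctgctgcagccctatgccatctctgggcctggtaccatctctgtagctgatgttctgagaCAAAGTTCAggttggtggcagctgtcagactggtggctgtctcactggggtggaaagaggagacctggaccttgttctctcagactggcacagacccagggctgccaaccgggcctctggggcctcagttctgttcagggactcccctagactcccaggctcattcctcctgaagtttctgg
Pltp, chr2:164857709-164857958, minus strand: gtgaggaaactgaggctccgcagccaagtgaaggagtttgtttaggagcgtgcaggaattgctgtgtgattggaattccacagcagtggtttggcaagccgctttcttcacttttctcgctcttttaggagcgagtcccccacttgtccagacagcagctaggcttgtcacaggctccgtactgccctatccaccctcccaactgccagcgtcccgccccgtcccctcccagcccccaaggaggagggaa
The core CAAAGNNCA stood in the 250 bases before the start of *Apob* and *Apoa4* and of 5.49% of all 32851 RefSeq promoters. In *Apob* it lay on the minus strand and began 55 bases before the end of the window, followed by TATAAA 12 bases before that end, without overlap. TATAAA was present in the 250 bases of *Apob*, of *Apoa5* and of 1 of the 3 *Apoe* start sites, the last of which lie inside the annotated gene, and in 12.4% of all promoters. These matches describe letters and are not evidence of binding.

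The log2 expression values deposited by the authors held 1 value per gene symbol, and each tissue was a table of its own, so that changes were tested within a tissue only, and a level set beside the median gene or another tissue is a description with no test. The median gene lay at 3.02 for liver, 3.16 for eWAT, 3.70 for iWAT and 2.83 for BAT, and arrays of a tissue correlated across genes with r between 0.939 and 0.995, although genes are not independent of each other. Precision is limited by the number of arrays. *Gpr146* was lower in all 4 knockout mice than in all 4 wild-type mice in each tissue, with a log2 change of -1.77 (liver), -1.53 (eWAT), -1.55 (iWAT) and -1.16 (BAT). The 9 hepatocyte marker genes had a summed level between 14.2 and 14.4 on the log2 scale in every liver and between 5.21 and 6.90 in the fat samples, and all 9 lay above the median gene in liver against 1 in eWAT, 1 in iWAT and 0 in BAT. The 8 macrophage marker genes were lower in eWAT of the knockout, where all 8 passed the threshold, and their summed log2 level ranged from 12.26 to 12.42 in wild-type eWAT and was 9.92, 11.97, 10.77 and 10.20 in knockout mice 1 to 4. Knockout mouse 2 thus stood nearest to the wild type. Without it the number of genes past the threshold went from 163 to 300 in liver and from 3758 to 5429 in eWAT. It went from 0 to 227 in iWAT and from 7 to 5 in BAT. The summed log2 level of 4 B cell markers in iWAT was 10.33 and 10.21 in wild-type mice 1 and 2. It was 9.97 and 8.18 in knockout mice 2 and 4, and 5.39 to 5.80 in the other arrays. That of 4 skeletal muscle markers in BAT was 9.93, 10.6 and 10.8 in wild-type mice 2 and 3 and knockout mouse 2. The other BAT arrays lay between 5.24 and 6.38. The part of either marker set in these counts was not tested.

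No member of the group passed the threshold in liver, and the observed differences in the assembly genes *Apob* and *Mttp* were small. The genotypes were compared with limma, which fits a linear model per gene and borrows the variance from all of them, and the threshold was an adjusted p of 0.05 (Benjamini-Hochberg, all 24646 genes). Of all genes, 0.661% passed in liver, against 0 of the 9 members. Before adjustment, 3 of the 9, *Mttp*, *Apoa4* and *Apoa5*, had a p below 0.05, all of them lower in the knockout, and 13.3% of all genes did. The median log2 change of the members was -0.17, and that of all genes 0.01. In 2 of the 9, *Apob* and *Mttp*, the genotypes did not overlap, where 7.78% of all genes showed no overlap.

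*Apob* encodes the apolipoprotein that forms the backbone of VLDL. Its log2 level was 11.28, 11.28, 11.32 and 11.28 in wild-type livers 1 to 4 and 11.15, 11.21, 11.20 and 11.15 in knockout livers 1 to 4. The highest knockout liver was below the lowest wild-type liver, and the means differed by -0.11 on the log2 scale (standard error 0.06, adjusted p = 0.493 from limma), which is 7.45% less transcript. The 95% interval of the difference ran from -0.25 to 0.03 on the log2 scale. Both groups were tight, with an SD of 0.02 in wild type and 0.03 in knockout (n = 4 each), below the spread that limma takes from all genes. In fat, *Apob* lay below the median gene of every depot, where its log2 change was -0.01 (eWAT), 0.08 (iWAT) and -0.02 (BAT).

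*Mttp*, whose product transfers triglyceride to nascent apolipoprotein B, measured 8.47, 8.35, 8.50 and 8.43 in wild-type livers and 8.24, 8.24, 8.33 and 8.23 in knockout livers on the log2 scale. The highest knockout liver, mouse 3, was just under the lowest wild-type liver, mouse 2. The mean was 8.44 ± 0.07 (SD, n = 4) in wild type and 8.26 ± 0.05 (SD, n = 4) in knockout, a log2 change of -0.18 with a 95% interval from -0.33 to -0.03. That is 11.6% less transcript, and it did not pass the threshold (adjusted p = 0.290 from limma), nor did it in any fit that left out a mouse (adjusted p between 0.273 and 0.489). In BAT, *Mttp* measured 4.28, 4.30, 4.41 and 4.37 in wild type and 4.88, 4.68, 4.43 and 4.38 in knockout, a log2 change of 0.25 (adjusted p = 0.407 from limma) with groups that overlapped. The change was 0.00 in eWAT and -0.15 in iWAT.

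Among the 9 members, *Mttp* had the smallest unadjusted p from limma in liver, while *Apob* had it when each gene's own variance was used, and the 3 genes most like *Mttp* over the 8 liver arrays were sought among the other 24645 genes. They were *1300010F03Rik* with a Pearson r of 0.985, *LOC100861848* with 0.973 and *4833442J19Rik* with 0.971. These correlations describe 8 arrays that include both genotypes, and no test was made of them. The highest r of 24645 genes over 8 arrays can be large by chance. *LOC100861848* and *4833442J19Rik* fell by 0.57 and 0.58 on the log2 scale (adjusted p = 0.0484 and 0.0221 from limma), whereas *1300010F03Rik* measured -0.38 (adjusted p = 0.0739 from limma). Because they were picked for likeness to *Mttp* over the same arrays, in which its genotypes did not overlap, these falls are not separate evidence.

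**Figure D1:**
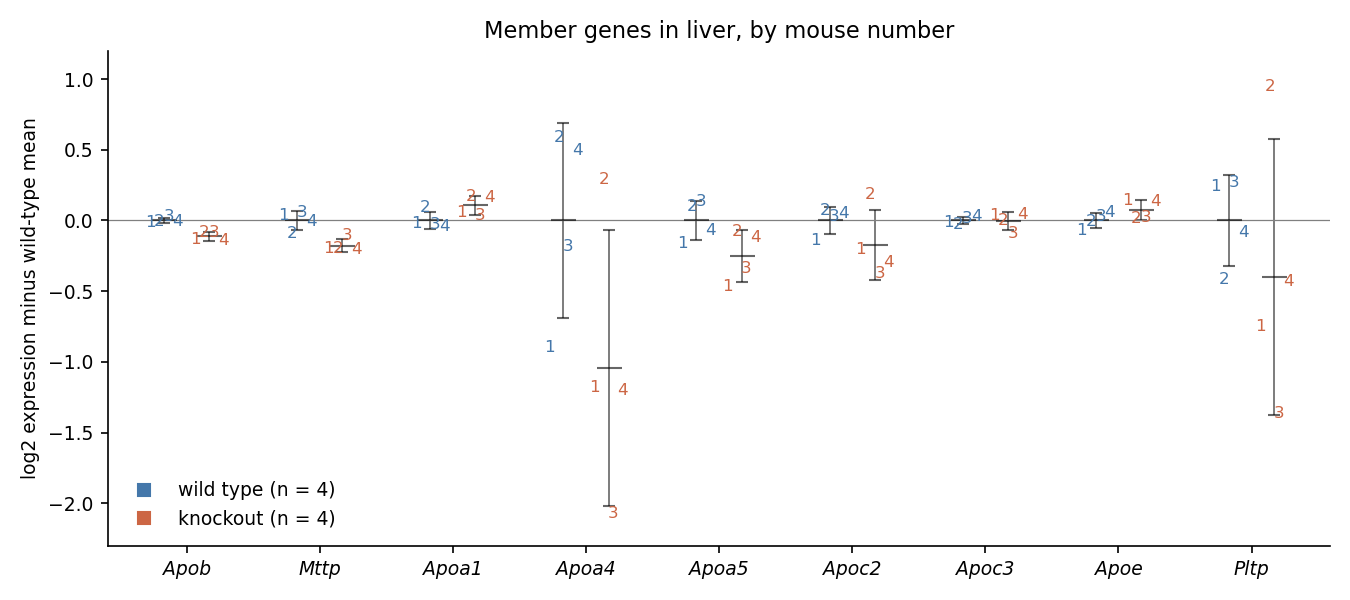
Expression of the 9 genes in liver, plotted as log2 value minus the wild-type mean of the gene, with digits marking the mouse number, bars the mean and whiskers the SD (n = 4 mice per genotype). Knockout values of Apob and Mttp lie below all wild-type values, while Apoa4 and Pltp spread widely and mouse 2 is the highest knockout mouse in both.

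None of the 4 neighbours on chromosome 9 passed the threshold in liver, and differences between their changes were not tested. *Apoa1*, which encodes the main protein of HDL, measured 10.89, 11.00, 10.88 and 10.86 in wild type and 10.97, 11.08, 10.94 and 11.07 in knockout, a log2 change of 0.11 (adjusted p = 0.568 from limma). *Apoc3*, an inhibitor of lipoprotein lipase and of remnant uptake, lay between 6.12 and 6.18 in wild type and between 6.06 and 6.19 in knockout, a log2 change of 0.00 with a 95% interval from -0.15 to 0.14. The groups overlapped in both genes.

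*Apoa4*, a lipid-responsive apolipoprotein of chylomicrons, VLDL and HDL, had the largest difference of the 9 in liver and also the largest spread. Its log2 level was 9.54, 11.02, 10.25 and 10.93 in wild-type livers 1 to 4 and 9.25, 10.72, 8.37 and 9.23 in knockout livers 1 to 4. Knockout mouse 2 lay above wild-type mice 1 and 3, and the other knockout livers lay below every wild-type liver. The mean was 10.44 ± 0.69 (SD, n = 4) against 9.39 ± 0.98 (SD, n = 4), which differ by -1.04 on the log2 scale (standard error 0.45, adjusted p = 0.342 from limma), or 51.5% less transcript. Without knockout mouse 2 the log2 change was -1.49 (adjusted p = 0.0783 from limma), and over all fits that left out a mouse it ranged from -1.49 to -0.70.

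Some genes listed as markers of other cell types were extreme in the same livers as *Apoa4*. Of the 5 adipocyte markers, *Cidec*, a lipid droplet protein, measured 5.44, 7.16, 6.54 and 7.06 in wild-type livers and 4.11, 5.39, 3.89 and 4.48 in knockout livers on the log2 scale. As for *Apoa4*, wild-type mouse 1 was the lowest of its group, knockout mouse 2 the highest and knockout mouse 3 the lowest. *Fabp4*, a fatty acid binding protein, ranged from 3.43 in mouse 1 to 5.48 in mouse 4 in wild type and from 2.07 in mouse 1 to 4.66 in mouse 2 in knockout, whereas *Adipoq*, *Lep* and *Plin1* averaged below the median gene in liver. The paper lists *Cidec* among the genes downstream of PPARγ that were lower in knockout liver, so it is not a mark of adipocytes alone. Of the 5 listed genes, 1 passed the threshold in liver, lower in the knockout (adjusted p = 0.0387 from limma). The summed log2 level of the 5 markers was 6.16 to 7.60 in wild type and 5.24 to 6.38 in knockout. That of the 4 markers of intestinal epithelium was 8.97 to 9.55 against 8.61 to 9.14 and consisted almost wholly of *Fabp2*, which liver also expresses. *Fabp2* was lowest in wild-type mouse 1 among wild-type livers and, unlike *Apoa4*, lowest in mouse 1 among knockout livers, while *Lct*, *Sis* and *Vil1* lay below the median gene. The part of any of these genes' sources in the *Apoa4* values was not tested. In fat, the log2 differences of *Apoa4* were 0.06 (eWAT), 0.04 (iWAT) and -0.11 (BAT), none of them past the threshold.

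*Apoa5*, which promotes hydrolysis of triglyceride by lipoprotein lipase, measured 9.32, 9.58, 9.62 and 9.41 in wild-type livers and 9.02, 9.41, 9.14 and 9.36 in knockout livers. Knockout mice 2 and 4 lay within the wild-type range and mice 1 and 3 below it, and the log2 change was -0.25 with a 95% interval from -0.49 to -0.02 (adjusted p = 0.332 from limma). *Apoc2*, the obligate cofactor of lipoprotein lipase, measured 7.52, 7.73, 7.69 and 7.71 in wild-type livers and 7.46, 7.84, 7.29 and 7.37 in knockout livers, a log2 change of -0.17 (adjusted p = 0.569 from limma). Knockout mouse 2 was the highest of all 8 livers, and the other knockout livers were below the wild type. Without it the log2 change of *Apoc2* was -0.29 (adjusted p = 0.161 from limma), and without knockout mouse 3 it was -0.11.

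*Apoe*, the ligand by which remnants bind their receptors, measured 7.21, 7.28, 7.31 and 7.34 in wild-type livers and 7.43, 7.30, 7.31 and 7.42 in knockout livers. The groups overlapped, with a log2 change of 0.08 and a 95% interval from -0.08 to 0.23 (adjusted p = 0.704 from limma). *Pltp*, the phospholipid transfer protein of plasma, measured 6.74, 6.08, 6.77 and 6.42 in wild type and 5.76, 7.45, 5.14 and 6.07 in knockout. Knockout mouse 2 was the highest of the 8 livers and the other knockout livers lay below the wild type. The log2 change was -0.40 (95% interval from -1.25 to 0.45, adjusted p = 0.717 from limma), and it was -0.85 (adjusted p = 0.113 from limma) without knockout mouse 2 and -0.08 (adjusted p = 0.952 from limma) without knockout mouse 3. Across the group of 9, knockout mouse 2 had the highest value among the knockout livers for 6 genes and knockout mouse 3 the lowest for 5. The macrophage markers of liver had a summed log2 level of 7.92 to 8.58 in wild type and of 6.90, 8.15, 7.10 and 7.26 in knockout mice 1 to 4, and the 5 Kupffer cell markers one of 7.79 to 9.11 and of 6.44, 8.07, 7.08 and 6.95, with mouse 2 again highest. Their part in the *Pltp* values was not tested, and in tissue RNA fewer cells of a type and less RNA per cell cannot be told apart.

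In fat, *Pltp* was the member that changed, and the fall passed the threshold in eWAT. Its log2 level was 10.90, 10.88, 11.04 and 10.95 in wild-type eWAT and 9.19, 10.62, 9.47 and 9.37 in knockout eWAT. The genotypes did not overlap in this depot, with knockout mouse 2 close to the wild type and the other 3 far below. The mean fell from 10.94 ± 0.07 (SD, n = 4) to 9.66 ± 0.65 (SD, n = 4), a log2 change of -1.28 with a standard error of 0.27 and a 95% interval from -1.88 to -0.68 (adjusted p = 0.0156 from limma), which is 58.8% less transcript. Of all genes, 15.2% passed the threshold in eWAT, against 1 of the 9 members. In 2 of the 9 members, *Pltp* and *Apoa1*, the genotypes did not overlap, where 21.6% of all genes showed no overlap. The fall of *Pltp* passed in each of the 8 fits that left out a mouse, with a log2 change between -1.60 and -1.12, the largest fall being without knockout mouse 2 (adjusted p = 1.0e-05 from limma). It did not pass when the variance was taken from *Pltp* alone, without moderation (adjusted p = 0.0799).

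*Pltp* was also lower in every knockout mouse of the other depots, without passing the threshold. In iWAT it measured 9.99, 10.02, 10.48 and 10.42 in wild type and 9.33, 9.71, 9.65 and 9.96 in knockout, a log2 change of -0.57 (95% interval from -0.94 to -0.19, adjusted p = 0.233 from limma). In BAT it measured 8.26, 8.63, 8.39 and 8.44 in wild type and 7.66, 8.05, 7.48 and 7.90 in knockout, a log2 change of -0.66 (95% interval from -0.95 to -0.36, adjusted p = 0.116 from limma). The groups did not overlap in either depot, but the smallest gap, in iWAT, was between 9.96 in knockout mouse 4 and 9.99 in wild-type mouse 1. In iWAT 0% and in BAT 0.0284% of all genes passed the threshold, and 0 of the 9 members did in either. With a mouse left out, 0 to 227 genes passed in iWAT and 0 to 80 in BAT, the most being without knockout mouse 2 and without wild-type mouse 1. *Pltp* was the only member without overlap in each of these depots, where 8.15% of all genes in iWAT and 7.23% in BAT showed none. At an unadjusted p below 0.05 stood 2 of the 9 members in iWAT, *Pltp* and *Apoc3*, against 15.4% of all genes, and 1 in BAT, *Pltp*, against 12.7%. In eWAT 4 of the 9 did, *Pltp* and *Apoc2* lower and *Apoa1* and *Apoe* higher, against 29.8% of all genes.

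**Figure D2:**
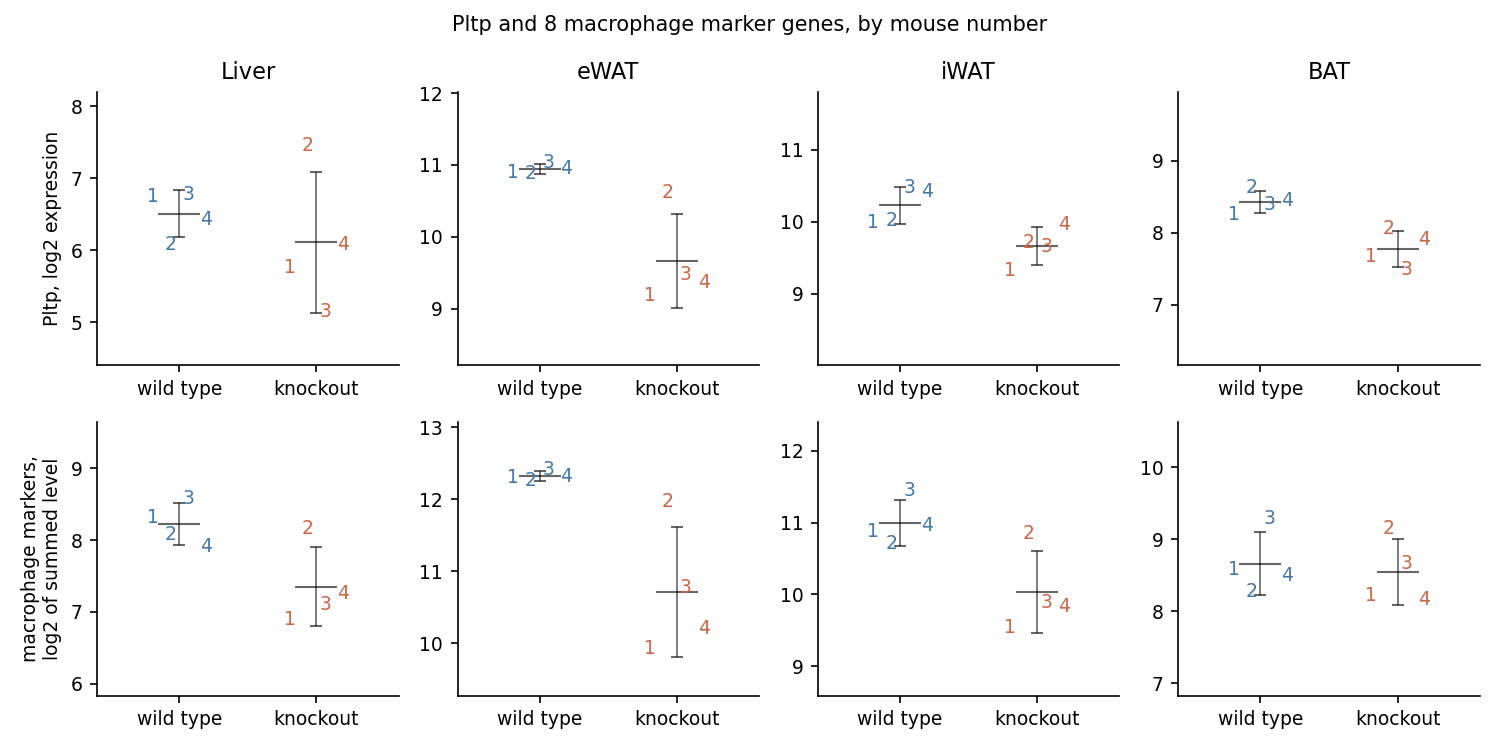
Log2 expression of Pltp (top) and the log2 summed level of 8 macrophage marker genes (bottom) in each tissue, with digits for mouse numbers, bars for means and whiskers for SD (n = 4), on axes of equal span. Knockout mouse 2 is the highest knockout mouse for Pltp in liver, eWAT and BAT and for the markers in all 4 tissues, while in BAT the markers of the genotypes overlap and Pltp does not.

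Macrophage markers were mostly lower in the knockout in each tissue, as the mean of *Pltp* was, without moving alike in every mouse. In liver 6 of the 8 were lower and 2 higher, with a median log2 change of -0.74. There 5 lower and 1 higher had an unadjusted p below 0.05 from limma, against 13.3% of all genes. In eWAT all 8 markers passed the threshold, against 15.2% of all genes, with a median log2 change of -1.91. The order of the knockout mice by their summed level placed mouse 2 first and mouse 1 last, as it did for *Pltp*. In iWAT, where 0% of all genes passed the threshold, all 8 markers were lower, with a median log2 change of -0.91. Of these, 5 had an unadjusted p below 0.05 from limma, against 15.4% of all genes. The summed log2 level in iWAT was 10.70 to 11.44 in wild type and 9.55, 10.85, 9.89 and 9.84 in knockout mice 1 to 4. Knockout mouse 2 thus lay within the wild-type range, whereas *Pltp* in the same mouse was 9.71, below all wild-type mice. The same array had a summed log2 level of 9.97 for B cell markers and 8.56 for Kupffer cell markers. The Kupffer cell sum was 8.27 and 7.71 in wild-type mice 1 and 2, whose B cell markers were also high. In the other iWAT arrays it was 5.28 to 5.74. The part of such cells in the macrophage level of iWAT was not tested. In BAT the summed macrophage level was 8.28 to 9.29 in wild type and 8.16 to 9.15 in knockout. There 0 of the 8 macrophage markers passed the threshold, against 0.0284% of all genes, and *Pltp* did not pass either. Of the 8, 7 were lower and 1 was higher. An unadjusted p below 0.05 from limma was reached by 2, both lower, against 12.7% of all genes. The part of macrophage number in the fall of *Pltp* in eWAT was not tested.

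The other 8 members did not pass the threshold in any depot, and several were near the low end of the scale there. Of the 9 members, all lay above the median gene in liver, but only 5, 4 and 5 in the depots in the order eWAT, iWAT and BAT. *Apoe* in eWAT measured 6.32, 6.31, 6.57 and 6.42 in wild type and 6.74, 6.64, 6.52 and 6.80 in knockout, a log2 change of 0.27 (adjusted p = 0.0821 from limma) with 1 knockout mouse, mouse 3, inside the wild-type range. This difference passed after quantile normalization (adjusted p = 0.0149 from limma) and with array weights (0.0297), while the log2 difference was -0.02 in iWAT and 0.04 in BAT. *Apoa1* in eWAT lay between 2.19 and 2.49 in wild type and between 2.50 and 2.82 in knockout, a log2 change of 0.32 (adjusted p = 0.0643 from limma) at levels below the median gene. *Apoc2* in eWAT measured 3.72, 3.66, 4.17 and 3.87 in wild type and 3.35, 3.74, 3.22 and 3.55 in knockout, a log2 change of -0.39 (adjusted p = 0.101 from limma). Without knockout mouse 2, which alone lay within the wild-type range, *Apoc2* was past the threshold with -0.48 (adjusted p = 0.0330 from limma). Leaving out the knockout mouse nearest to the wild type enlarges the difference. This was the only 1 of the 8 fits without a mouse that passed. Over these fits the log2 change of *Apoc2* ran from -0.48 to -0.28, with an adjusted p up to 0.220 from limma. *Apoc3* was higher by 0.27 on the log2 scale in both iWAT and BAT (adjusted p = 0.305 and 0.445 from limma). *Apoa5* lay below the median gene in all depots, with log2 differences of 0.11 (eWAT), 0.24 (iWAT) and -0.07 (BAT), of which that in iWAT was 0.07 without knockout mouse 3 and 0.40 without knockout mouse 2.

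**Figure D3:**
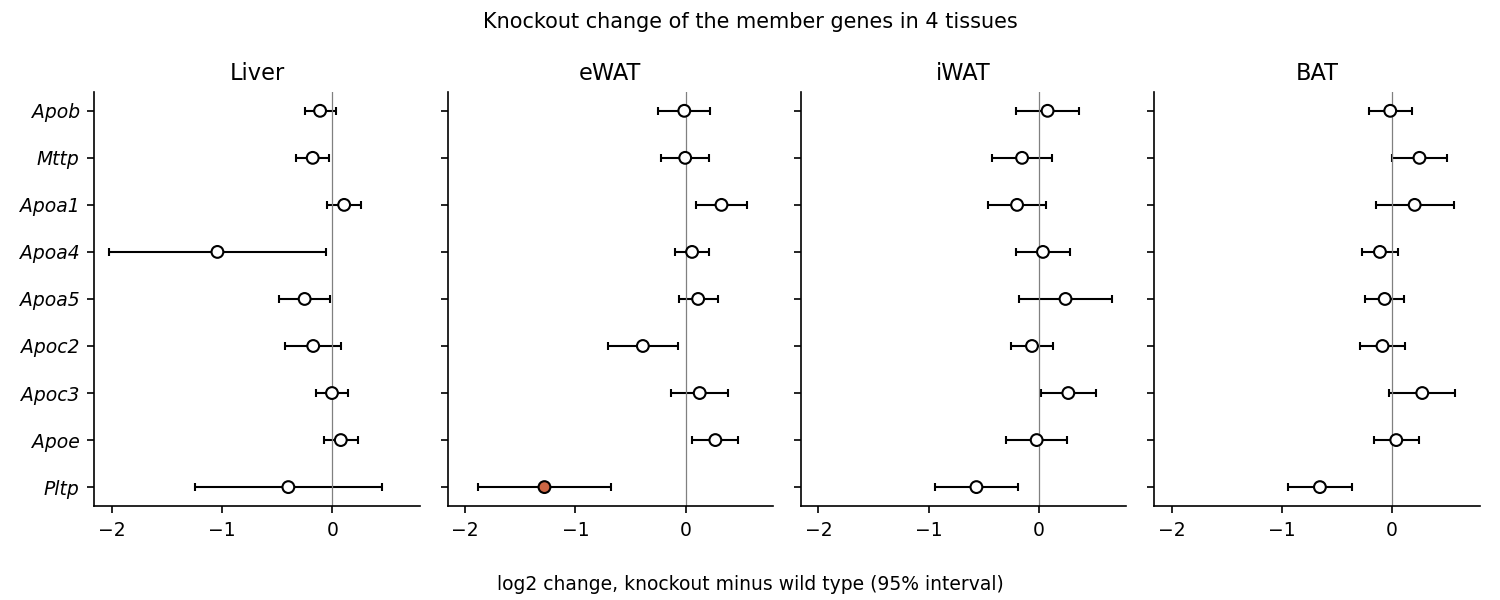
Log2 change (knockout minus wild type, horizontal axis) of each of the 9 genes in the 4 tissues, with 95% intervals from limma. Filled points passed an adjusted p of 0.05, which was the case for Pltp in eWAT alone, while the widest intervals are those of Apoa4 and Pltp in liver.

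The changes of liver and depot were then set against each other within mice, since the labels number the mouse of each sample. Liver and depot of the same number and genotype were taken as 1 mouse, which the arrays themselves bear out only weakly. Among the 4 depot arrays of its genotype, a liver array's deviation from its group mean correlated best with its own number in 5 of 8 mice per depot. The own-number r was low, from -0.0635 to 0.150 (eWAT), -0.145 to 0.171 (iWAT) and -0.0344 to 0.0679 (BAT). *Pltp* fell less in liver than in eWAT, with a difference between the log2 changes of 0.88 (standard error 0.24, 95% interval from 0.35 to 1.42, adjusted p = 0.0482 from limma), and 8.37% of all genes, 2062, differed at this threshold (918 to 3130 with a mouse left out, the most without knockout mouse 2). The *Pltp* values of liver minus eWAT overlapped between the genotypes (p = 0.0857 in a two-sided exact permutation test). The call did not hold without the mouse block (adjusted p = 0.363 from limma) or after quantile normalization (0.0582). With a mouse left out it held without knockout mouse 3 alone (0.0113), and the adjusted p reached 0.138 otherwise. Leaving out knockout mouse 2 instead called *Apoa4*, with a liver change lower than the eWAT change by -1.56 on the log2 scale (adjusted p = 0.00996 from limma).

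Against iWAT and BAT, 0 of the 9 members differed from their liver change. Of all genes, 0.00406% and 0.0893% did. At an unadjusted p below 0.05, 0 members differed for iWAT and 1, *Mttp*, for BAT, against 11% and 9.41% of all genes. *Mttp* was lower in the knockout liver and higher in the knockout BAT, and the liver change minus the BAT change was -0.43 on the log2 scale (95% interval from -0.73 to -0.12, adjusted p = 0.340 from limma). Across the 8 mice the liver minus BAT values of the genotypes did not overlap, as in 5.47% of all genes (p = 0.0286 in a two-sided exact permutation test, which is as low as 4 against 4 mice can go).

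Around the 9 members, 51 other genes of lipoprotein metabolism were listed, of which 50 were measured. In liver 1 of the 50, *Saa4*, passed the threshold, or 2%, against 0.661% of all genes. *Saa4*, a constitutive apolipoprotein of HDL made by the liver, measured 10.59, 10.31, 10.09 and 10.09 in wild type and 9.68, 9.59, 9.83 and 9.45 in knockout. Every knockout liver lay below every wild-type liver, and the log2 level fell by 0.63 (standard error 0.12, adjusted p = 0.0478 from limma). The call was at the edge of the threshold, and 0 of the 50 genes passed with array weights, or without any 1 mouse other than knockout mouse 2.

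In 7 of the 50 genes, or 14%, the liver values of the genotypes did not overlap, where 7.78% of all genes showed none. *Saa4* was 1 of them and passed the threshold, which the others did not, and those named here were named after their values were seen. In the VLDL assembly and secretion list, *Sar1b*, a GTPase of the vesicles that carry lipoprotein out of the endoplasmic reticulum, measured -0.31 on the log2 scale (adjusted p = 0.111 from limma). *Apom*, an HDL apolipoprotein, was higher with 0.37 (0.118), *Lcat*, the enzyme that esterifies cholesterol on HDL, lower with -0.18 (0.321), and *Nr1h3*, the liver X receptor alpha, lower with -0.22 (0.282). None of the 16 transcription factor genes passed the threshold, *Hnf4a* among them, and their median log2 change was -0.11.

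In eWAT, 14 of the 50 genes passed the threshold, or 28% against 15.2% of all genes, with 5 higher and 9 lower in the knockout. Of the 9 receptor and remnant uptake genes, 4 fell and 0 rose, and their median log2 change was -0.49 against 0.03 over all genes. Among the falls in this list were those of the remnant receptor *Lrp1* (-0.54) and the heparan sulfate proteoglycan *Sdc1* (-0.52) on the log2 scale. In the VLDL assembly list, 2 of 11 fell, namely *Lpcat3*, a lysophospholipid acyltransferase, by -0.60, and *Apobec1*, the enzyme that edits *Apob* mRNA, by -2.05. *Apobec1* measured 8.83 to 9.07 in wild-type eWAT and 6.01, 8.45, 6.60 and 6.57 in knockout eWAT, with mouse 2 nearest to the wild type as for *Pltp*.

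Of the 10 other apolipoproteins, *Apoc1* rose and *Apod* fell in eWAT. *Apoc1*, the neighbour of *Apoe* on chromosome 7, measured 5.97, 5.58, 5.83 and 5.73 in wild type and 6.95, 6.46, 6.79 and 7.74 in knockout, a rise of 1.21 on the log2 scale (adjusted p = 0.0127 from limma), whereas *Apoe* itself was not past the threshold. *Apod*, a carrier of small lipids that belongs to the lipocalins, fell by 1.54 on the log2 scale (adjusted p = 0.0278 from limma). Of the 4 HDL genes, the cholesterol exporter *Abca1* rose by 0.50 and *Abcg1*, which exports cholesterol to HDL, fell by 0.58. Of the 16 transcription factor genes, *Cebpa* (1.13), *Nr5a2* (0.53) and *Ppara* (0.49) rose and *Srebf2* (-0.53) fell on the log2 scale. The adipocyte markers moved in the same depot, where *Adipoq*, *Cidec*, *Fabp4* and *Plin1* rose, *Lep* fell, and the summed log2 level was 12.52 to 12.56 in wild type and 12.61 to 12.81 in knockout. The part of cell makeup in these changes was not tested. Of the 14 genes, the rule fixed for naming covered *Cebpa*, *Lpcat3*, *Apoc1* and *Abca1* among those given here, and the others are named after their values were seen. In iWAT and BAT 0 of the 50 genes passed the threshold, and 6 and 10 had an unadjusted p below 0.05, against 15.4% and 12.7% of all genes.

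**Figure D4:**
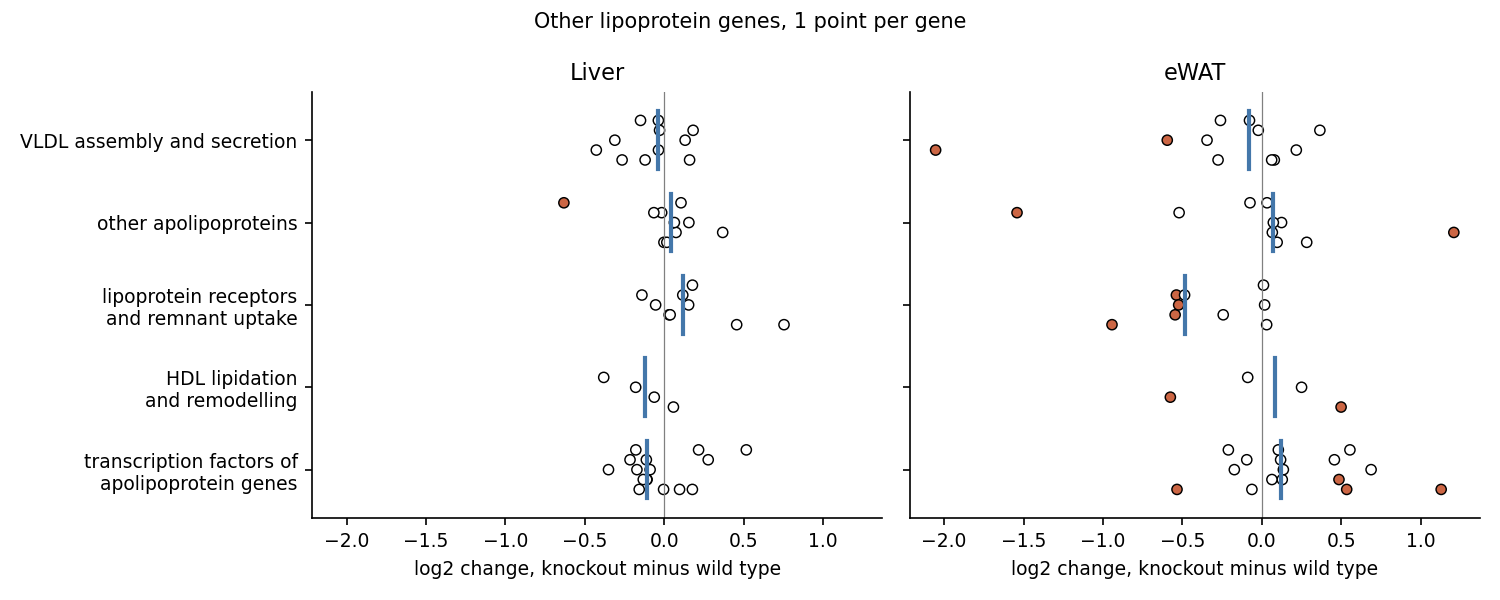
Log2 change (knockout minus wild type) of the 50 other lipoprotein genes in liver and eWAT, with 1 point per gene, vertical bars at list medians and filled points for an adjusted p below 0.05 from limma. A single filled point, Saa4, stands in liver, whereas 14 stand in eWAT, and the 4 filled points of the receptor list all lie on the lower side.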

How the data were processed

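The authors deposited log2 expression values of each tissue as a separate table, which were taken as normalized and used as deposited. For 840 genes the row identifier was not a whole number, which was read as an average over several probe sets. The software, probe summary and normalization are not given in the sources used here. Per tissue, 1 or 2 rows whose gene name was blank or corrupted to a number were left out. Groups came from the sample labels, whose 4 liver knockout titles also name the wild type, while genotype, source name and description say knockout.

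Genotypes were compared within each tissue with limma 3.58.1 (R 4.3.3; lmFit, eBayes, no covariate) and Benjamini-Hochberg adjustment over 24646 genes. Single values were compared with exact permutation tests over 70 relabelings. A summed level is log2 of the sum of linear values. Liver and depot changes were compared on liver minus depot values per mouse number. Wild-type and knockout mice share numbers, and the labels do not say that a shared number is a pair. Their deviations correlated above 0.1 in 1 of 4 pairs in liver and eWAT and in 3 of 4 in iWAT and BAT. The largest r was 0.669, for number 2 in iWAT, where both arrays had high B cell markers. The numbers were not taken as pairs in the main fits, and a fit with the number as a block is among the alternatives. The procedure was tested on simulated data. Alternatives were quantile normalization, equal array medians, a trended and robust prior, array weights, the methods' t-test, the mouse number as a block, and fits without dim genes or without each mouse. The rule for naming genes covered the 9 members, *Gpr146*, list genes past the threshold in liver, at most 5 per depot by smallest p, and the 3 genes most like the member with the smallest liver p. Other list genes, and single marker genes, were named outside this rule. The members and the lists were chosen with earlier results of these data known. Some genes of the receptor list are not reported here by name.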

Additional observations from a re-analysis of the deposited data

Results flagged for a closer look

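In 3 of 72 groups of 4 mice, 1 member value stood far from the other 3 (Dixon's test), and chance flags about 1 in 20 groups. In liver, *Mttp* of knockout mouse 3 was 8.33 on the log2 scale, while the other knockout livers lay between 8.23 and 8.24. In iWAT, *Apoc2* of wild-type mouse 1 was 3.72, while the other wild-type mice lay between 3.80 and 3.81. In iWAT, *Apoe* of knockout mouse 4 was 7.69, while the other knockout mice lay between 7.41 and 7.45. The change of *Pltp* also differed between liver and eWAT, by 0.88 on the log2 scale, in a test of the difference itself (adjusted p = 0.0482 from limma). The liver minus eWAT values of the genotypes overlapped (p = 0.0857 in a two-sided exact permutation test). The call held in 1 of the 8 fits that left out a mouse.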

How the results depend on the processing

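With 4 mice a group, single mice decide several values. The count of members past the threshold in eWAT was 1, became 2 after quantile normalization and with array weights, 0 by the methods' t-test (*Pltp* adjusted p = 0.0799), and 1 to 2 with a mouse left out. For liver against eWAT it was 1, became 0 with no replicate block and after quantile normalization, and 0 to 1 with a mouse left out. The pathway count in liver was 0 with array weights, by the methods' t-test, and 0 to 1 with a mouse left out. In eWAT it was 0 by the methods' t-test and 6 to 18 with a mouse left out, the lowest without wild-type mouse 2, and in iWAT 0 to 4, the highest without knockout mouse 2. With the mouse number as a replicate block, *Pltp* in eWAT kept its call (adjusted p = 0.0218 from limma), and no member count changed.

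Signs turned only for differences that did not pass the threshold. After quantile normalization *Apoc3* in liver was 0.0690, *Mttp* in eWAT 0.0150, *Apob* in iWAT -0.00113, *Apoa4* in iWAT -0.0124, *Apoe* in iWAT 0.135 and *Apoe* in liver minus iWAT -0.0107 on the log2 scale. With array weights *Apob* in eWAT was 0.0269, *Apoa4* in iWAT -0.000693 and *Apoe* in iWAT 0.0467.

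With a mouse left out, *Apoc3* in liver ranged from -0.0194 to 0.0248, and in eWAT *Apob* from -0.0817 to 0.0552 and *Mttp* from -0.0662 to 0.0458. In iWAT *Apob* ranged from -0.00878 to 0.169, *Apoa4* from -0.0379 to 0.112 and *Apoe* from -0.0966 to 0.0575, and in BAT *Apob* from -0.0490 to 0.0479 and *Apoe* from -0.0308 to 0.0944. For liver minus iWAT, *Mttp* ranged from -0.0969 to 0.0894 and *Pltp* from -0.266 to 0.485. For liver minus BAT, *Apoa1* ranged from -0.227 to 0.0384, *Apoe* from -0.0390 to 0.0874 and *Pltp* from -0.101 to 0.479.

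Over all genes, liver had 163 calls, with 252 when dim genes were left out and 2 by the methods' t-test, which called 38 in eWAT against 3758. In iWAT the replicate block and the methods' t-test called 1 gene each against 0, and in BAT quantile normalization, equal medians, the block and the methods' t-test called 0 against 7. For liver against iWAT and BAT, leaving out the block gave 29 and 36 calls against 1 and 22, and quantile normalization 0 for iWAT. With a mouse left out, liver had 41 to 300 calls and eWAT 1448 to 5429, and liver against iWAT and BAT 0 to 99 and 2 to 43. The causes were not tested.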
